A study of Mus musculus with 30 samples.

Results

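The transferrin receptor (Tfrc) is represented among the control features of this mouse expression array by 3 probe sets, whose IDs start with AFFX-TRANSRECMUR and place them at the 5' end, the middle and the 3' end of the transcript. All 3 were taken, out of 66 control probe sets and 12488 probe sets in the table. They were followed on 30 arrays of liver RNA from male C57Bl/6 mice, with 1 biotin-labelled array per mouse. The mice had been given water as vehicle or 1 of the piperidine compounds CP-775146, CP-868388 and CP-865520 at 1 mg/kg/day, which activate PPAR-alpha, a nuclear receptor that controls lipid burning in the liver. Livers were taken after 24 h or after 5 days. Each of the 8 combinations of treatment and time held 4 arrays, except CP-775146 at 5 days with 2. No allele, transgene or age is named in the labels. The probe sets carry no gene names beyond those in the control IDs, so markers of hepatocytes and of other liver cells could not be checked, and other probe sets for the same gene were not analysed here.

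The transferrin receptor binds iron-loaded transferrin at the cell surface and carries it into the cell by endocytosis. Its mRNA is known to be stabilised by iron regulatory proteins when cellular iron is low and to be degraded when iron is plentiful. Dividing cells and red cell precursors are known for high levels of it, and hepatocytes hold a related receptor, transferrin receptor 2, as well. Control sets spread along one transcript serve to compare its ends. The labelled RNA is copied from the 3' end, so the 5' set loses signal first when RNA is degraded or copying stops early.

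Only the 3' set gave any signal in these livers, where fewer cells carrying a transcript and less of it per cell cannot be told apart. Intensities in the table are whole numbers on a linear scale, and none lies below 50, the value called the floor here, so a reading of 50 is an upper limit and not a level. The 5' set read 50 on all 30 arrays, and so did the middle set. The 3' set lay above the floor on 17 of 30 arrays, where it read between 54 and 93, and 2 arrays exceeded 80. It was above the floor on 14 of 22 arrays from treated mice and on 3 of 8 vehicle arrays. By time, 7 of 16 arrays were above it at 24 h and 10 of 14 at 5 days. In the table as a whole, 3977 probe sets never left the floor, 4129 were above it on every array and 4382 on some arrays, and 50.29% of all values were at the floor. The array means were nearly equal, from 314.1 to 318.2, and each array had between 5600 and 6741 probe sets above the floor.

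Readings this close to the floor also occurred in control sets that have no mouse target. The 15 sets for Bacillus genes (DAPX, LYSX, PHEX, THRX and TRPNX) and the 4 yeast sets were at 50 on every array, like the 5' and middle transferrin receptor sets. Another 9 sets look for the opposite strand of the bacterial and phage hybridisation controls, whose matching strand was above the floor on all arrays. Of these, 3 were above the floor on all 30 arrays, 5 on some arrays and 1 on none. AFFX-BIOB-5_ST was above 50 on 11 arrays with a highest value of 89, and AFFX-BIOB-M_ST on 7 arrays with a highest value of 74. Values of the size seen for the 3' transferrin receptor set were thus recorded in some control sets with no mouse target, but not in the Bacillus and yeast sets. The 6 sets for the opposite strand of Gapdh and beta-actin also left the floor, 3 on all arrays and 3 on some. Of these, AFFX-B-ACTINMUR/M12481_5_ST was above 50 on 17 arrays, with a median of 53 and a highest value of 143. The 3' transferrin receptor set had a median of 55 and a highest value of 93. How much of the 3' signal is transferrin receptor RNA was not tested. Among the mouse cytokine controls, interleukin 4 and interleukin 10 never left the floor and interleukin 2 did so on 1 array, at 61.

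At 24 h the 3' set differed little between treatments. The vehicle arrays read 50, 50, 50 and 58, with a mean of 52.0 ± 4.00 (SD, n = 4). Under CP-775146 the arrays read 65, 50, 64 and 55 (58.5 ± 7.23, SD, n = 4). Under CP-868388 they read 50, 57, 50 and 50 (51.8 ± 3.50, SD, n = 4). Under CP-865520 they read 67, 62, 50 and 50 (57.2 ± 8.62, SD, n = 4). Each treated group overlapped with vehicle, and each held at least 1 array at the floor. Since readings at the floor are upper limits, these means are upper limits as well.

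After 5 days the highest readings were those of CP-775146 and CP-865520. The vehicle arrays read 50, 60, 50 and 54 (53.5 ± 4.73, SD, n = 4). The CP-775146 arrays read 93 and 64 (78.5 ± 20.5, SD, n = 2), both above every vehicle array. The CP-868388 arrays read 55, 71, 56 and 50 (58.0 ± 9.06, SD, n = 4). The CP-865520 arrays read 50, 71, 90 and 55 (66.5 ± 18.0, SD, n = 4). CP-865520 therefore held both a reading at the floor and the second highest of the series, and it overlapped with vehicle, as CP-868388 did. Ordered by mean, the groups ran from CP-868388 at 24 h and vehicle at 24 h, through vehicle at 5 days, CP-865520 at 24 h, CP-868388 at 5 days and CP-775146 at 24 h, to CP-865520 and CP-775146 at 5 days. In every step of this order the arrays of the neighbouring groups overlapped.

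The 3' set was tested in a model over all probe sets, on log2(intensity + 50), a scale that understates the change of dim probe sets such as this one. It passed the filter on low values (above 50 on at least 2 arrays) and the other 2 members did not, so those have no test. It was called in 1 of the 6 comparisons with vehicle, CP-775146 at 5 days, where it was higher by 0.30 ± 0.10 (SE) with a 95% interval from 0.094 to 0.51 (limma adjusted p = 0.021). On the linear scale the mean intensity was at least 1.47-fold higher, a lower bound because 2 of the 4 vehicle arrays were at the floor. In that comparison 37.2% of the 7981 probe sets tested were called in either direction, 983 of them higher and 1983 lower. A call was thus common there, though less so for higher than for lower probe sets. The median change over all probe sets tested was -0.11. Over the same probe sets 14.5% had both CP-775146 arrays above all vehicle arrays. The call rests on 2 arrays and on the higher of them. Without replicate 1, which read 93, the difference was 0.14 and limma's adjusted p = 0.425, with the remaining array assumed to vary like the other groups. With the other groups left out of the fit, limma's adjusted p was 0.0898. An exact two-sided permutation test of these 2 arrays against the 4 of vehicle, on the log2 intensity itself, gave p = 0.133, the smallest p that groups of this size allow.

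The other comparisons with vehicle did not pass the test. At 5 days CP-865520 differed by 0.16, with a 95% interval from -0.012 to 0.33 (limma adjusted p = 0.13), where 42.2% of probe sets were called. Whether this difference was called depended on the scaling of the arrays. Quantile normalization gave 0.23 (limma adjusted p = 0.0177), centring on each array's median 0.26 (0.00943) and centring on the always detected probe sets 0.27 (0.00262). These scalings move the readings at the floor, which are the same number on every array as deposited. Relative to the median of all probe sets the difference was 0.24, a value that a centring cannot alter. The CP-865520 result was also called with a covariate for RNA integrity (0.23, limma adjusted p = 0.0374). That covariate was the mean standardised log2 5'/3' ratio of Gapdh, beta-actin and pyruvate carboxylase. Every CP-865520 array of 5 days had a lower beta-actin ratio (-1.62 to -1.04) than every vehicle array of 5 days (-0.99 to -0.61). The same held for pyruvate carboxylase (-2.24 to -1.67 against -1.57 to -1.26), while the Gapdh ratios overlapped. This fit therefore cannot separate treatment from these ratios. The CP-865520 result was called as well without its replicate 1, which was at the floor (0.23, limma adjusted p = 0.0356). CP-868388 at 5 days differed by 0.059, from -0.11 to 0.23 (limma adjusted p = 0.623), where 37.8% were called.

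At 24 h the difference from vehicle was 0.088 under CP-775146, with a 95% interval from -0.084 to 0.26 (limma adjusted p = 0.582, 20% of probe sets called). Under CP-865520 it was 0.070, from -0.10 to 0.24 (limma adjusted p = 0.647, 20.2% called). Under CP-868388 it was -0.0034, from -0.17 to 0.17 (limma adjusted p = 1, 40.6% called). This last difference was 0.036 with quantile normalization, which was not called either. Both centrings shift all probe sets of an array alike, and relative to the median of all probe sets the difference was 0.055 with and without them.

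The 3 compounds were compared with each other at the same dose and time, which gave 6 pairs, and none was called. At 5 days CP-775146 minus CP-868388 was 0.25, with a 95% interval from 0.035 to 0.46 (limma adjusted p = 0.529 over all probe sets, unadjusted p = 0.024), and adjustment over the 6 pairs gave a limma p of 0.144. Without CP-775146 replicate 1 it was 0.082 (limma adjusted p over all probe sets = 0.898), and without replicate 2 it was 0.41. Among all probe sets 0.0752% were called in that pair. CP-775146 minus CP-865520 at 5 days was 0.14, from -0.065 to 0.35 (limma adjusted p = 1, 0.0251% called), and it was -0.019 without CP-775146 replicate 1 and 0.31 without replicate 2. CP-868388 minus CP-865520 at 5 days was -0.10, from -0.27 to 0.071 (0.87, 0.0626% called). At 24 h CP-775146 minus CP-868388 was 0.091, from -0.081 to 0.26 (0.561, 16.4% called). CP-775146 minus CP-865520 at 24 h was 0.018, from -0.15 to 0.19 (1, 0.1% called). CP-868388 minus CP-865520 at 24 h was -0.073, from -0.24 to 0.098 (0.566, 27.9% called). The arrays of both compounds overlapped in every pair. At 5 days the intervals of both pairs with CP-775146 reach beyond the 0.30 called against vehicle, and a missed threshold does not show that the compounds act alike.

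Time was examined in the same model. The response to CP-775146 at 5 days minus that at 24 h was 0.22, with a 95% interval from -0.055 to 0.49 (limma adjusted p = 0.343), where 4.85% of probe sets were called. It was 0.053 without CP-775146 replicate 1 of 5 days and 0.38 without replicate 2, and centring on the always detected probe sets gave 0.35 (limma adjusted p = 0.055). For CP-868388 the change of the response was 0.062, from -0.18 to 0.30 (0.828, 3.55% called). For CP-865520 it was 0.089, from -0.15 to 0.33 (0.623, 17.4% called). The vehicle groups of the different times differed by 0.021, from -0.15 to 0.19 (0.914, 22.7% called). So the call under CP-775146 at 5 days was not shown to differ from the 24 h response.

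The 5'/3' ratio of the transferrin receptor could not be measured on any array, because no array had both sets above the floor. On the 17 arrays with 3' signal it has an upper bound, 50 over the 3' intensity. These bounds lay between 0.538 and 0.926, or between -0.90 and -0.11 as log2 values, with a median log2 bound of -0.31. On the other 13 arrays both ends were at the floor and there is no ratio. The middle set gives the same bounds, since it had the same readings as the 5' set. For a comparison of groups, the floor value was put in place of the missing 5' level. Arrays with both ends at the floor thus entered as a log2 ratio of 0, although they have no ratio. On this footing the mean log2 ratio was -0.63 under CP-775146 at 5 days against -0.094 under vehicle, a difference of -0.53 (exact permutation p = 0.133, adjusted over 6 comparisons 0.514). This is the same permutation test as that given above on the log2 intensity, not a second one. The other 5 differences from vehicle ran from -0.28 to 0.0063, with exact permutation p-values from 0.257 to 1. Groups of 4 could have reached 0.0286. With the 5' set constant, these ratios repeat the 3' readings with the sign turned and say nothing of RNA integrity.

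The ratios that could be measured show how the ends of other transcripts fared on the same arrays. The log2 5'/3' ratio of Gapdh, a glycolytic enzyme, lay between -0.55 and 0.31 over the 30 arrays (median 0.015). That of beta-actin, a cytoskeletal protein, lay between -1.62 and -0.44 (median -0.91), and that of pyruvate carboxylase, which feeds gluconeogenesis, between -3.72 and -0.86 (median -1.65). The CP-775146 arrays of 5 days had Gapdh ratios of 0.20 and -0.085, beta-actin ratios of -0.94 and -1.23 and pyruvate carboxylase ratios of -1.55 and -2.05. The vehicle arrays of 5 days ran from -0.019 to 0.063, from -0.99 to -0.61 and from -1.57 to -1.26. The array that read 93 was in each case the one with the higher ratio of its pair. These CP-775146 arrays also had fewer probe sets above the floor, 5961 and 5725, than the vehicle arrays of 5 days, which had between 6480 and 6741. With the RNA integrity covariate in the model, the 3' difference of CP-775146 from vehicle at 5 days was 0.34 (limma adjusted p = 0.00813). With only 2 CP-775146 arrays of 5 days, this fit cannot separate treatment from RNA integrity, and it holds no measure of detection. Whether RNA integrity or detection contributes to the 3' difference was not tested.

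Across all 30 arrays, the 3' transferrin receptor level was set against 4 array measures on the log2(intensity + 50) scale. With the number of probe sets above the floor, Pearson's r was -0.040 (permutation p = 0.833, adjusted 0.833) and Spearman's rho -0.039 (p = 0.84, adjusted 0.9). Pearson's r was -0.085 without the 2 arrays farthest from the median of the array measure. The arrays were not picked by their 3' level, so the highest 3' readings can remain. The values without the farthest 2 given below are also r, with arrays picked in the same way. After each group's mean had been taken off, r was 0.56 (permutation within groups, p = 0.0161, adjusted 0.045) and rho 0.49 (p = 0.0211, adjusted 0.073), and r was 0.65 without the farthest 2 arrays. Within a group, arrays with more probe sets above the floor thus had more 3' signal by r, while rho missed 0.05 after adjustment. The count includes the 3' set itself and, like it, depends on dim readings leaving the floor. Each adjusted value here covers the 4 measures for 1 statistic only. With the pyruvate carboxylase ratio r was 0.22 over all arrays (permutation p = 0.243, adjusted 0.485; rho 0.10, p = 0.586, adjusted 0.9; 0.098 without the farthest 2). Within groups it was 0.39 (p = 0.0225, adjusted 0.045; rho 0.45, p = 0.0365, adjusted 0.073; 0.42 without the farthest 2). With the Gapdh ratio r was 0.30 (permutation p = 0.102, adjusted 0.409; rho 0.25, p = 0.188, adjusted 0.751; 0.22 without the farthest 2) and 0.34 within groups (permutation p = 0.126, adjusted 0.132; rho 0.29, p = 0.184, adjusted 0.224; 0.20 without the farthest 2). With the beta-actin ratio r was -0.060 (permutation p = 0.756, adjusted 0.833; rho -0.024, p = 0.9, adjusted 0.9; -0.22 without the farthest 2) and 0.36 within groups (permutation p = 0.132, adjusted 0.132; rho 0.27, p = 0.224, adjusted 0.224; 0.20 without the farthest 2). The within-group values were added after the data were seen.

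Among the 4129 probe sets that every array had above the floor, the pattern most like that of the 3' set over the 30 arrays was that of 160098_S_AT (Pearson's r = 0.66, and 0.61 with group means taken off). Its intensity ran from 168 to 297 with a median of 220. Next came 100225_F_AT (r = 0.65, and 0.52 within groups), with intensities from 79 to 243 and a median of 144.5. The next 3 had r between 0.58 and 0.59. The most opposed were 104588_AT (r = -0.64, and -0.62 within groups), which ran from 724 to 4598, and 101516_AT (r = -0.61, and -0.48 within groups), which ran from 532 to 1463. Over all these probe sets the median r was 0.040, with 49 at or above 0.5 and 12 at or below -0.5. The points share the arrays and the treatment groups, and 13 of the 30 are tied at the floor, so these values are descriptions. No gene names are paired with these IDs here.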

How the data were processed

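Per the submitters' processing notes, MAS5 produced the values. Its version and scaling target, and what set the lowest value, were not given in the sources used here. As deposited, the table holds linear intensities for 12488 probe sets on 30 arrays, and all 30 columns were used. Arrays were grouped by title. Intensities were analysed as log2(value + 50) without further normalization. A probe set was tested if it exceeded 50, the table's median, on 2 or more arrays; 7981 were tested, among them 18 of 23 mouse control sets; other controls were left out of the tests. Group means over all 30 arrays were fitted with limma 3.58.1 in R 4.3.3 (trended eBayes, two-sided, Benjamini-Hochberg over all tested, called under 0.05). The fit was tested on simulated data whose changes lay in bright probe sets of a full-sized group. That test does not bear on a set near the floor or on the smallest group. Ratios used exact permutation tests (scipy 1.17.1), and relations between arrays 100000 permutations. Alternatives covered pseudocount, filter, scaling, arrays in the fit, integrity covariate and replicate block. The number of arrays limits precision. Transferrin receptor sets and nearest patterns were named by rule; planned iron, proliferation and cell type lists need gene names and were not applied. Members, lists and tests were chosen with earlier results of these data known.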

Additional observations from a re-analysis of the deposited data

Results flagged for a closer look

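In the 3' transferrin receptor set, a single array stood apart from the other 3 of its group in 2 groups at 24 h, at 58 under vehicle (replicate 4) and at 57 under CP-868388 (replicate 2). In both groups the other 3 arrays were at the floor of 50, so any reading above it stands apart. The Gapdh log2 5'/3' ratio of CP-865520 replicate 4 at 24 h was -0.446, below the other 3 arrays of its group, and the 3' transferrin receptor set was at the floor on that array. In all, 28 groups of 4 values were examined and 3 arrays stood apart. The chance share of about 1 in 20 groups holds for values without ties, so it does not apply to groups with readings tied at the floor.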

How the results depend on the processing

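The difference of CP-775146 from vehicle at 5 days was positive in all 17 alternatives (0.14 to 0.52) and called in 15; with only the compared groups it was 0.30 (adjusted p = 0.0898), and leaving out single arrays gave 0.14 to 0.47. CP-865520 at 5 days was called in 5 of 19 (quantile normalization 0.23, array median 0.26, always detected probe sets 0.27, integrity covariate 0.23; leaving out single arrays 0.067 to 0.23). Centring moved the median change of all probe sets under CP-775146 at 5 days from -0.11 to -0.0016 or 0.072; it shifts all probe sets of an array alike, so the difference relative to that median, 0.41, is fixed. No other difference was called under any alternative run. Signs also turned in uncalled differences. CP-868388 minus vehicle at 24 h became 0.036 (quantile), 0.056 (array median), 0.15 (always detected sets), 0.14 (integrity covariate) and 0.021 without the 3 arrays of a Gapdh log2 ratio under -0.4, and ran from -0.028 to 0.024 when single arrays were left out; its ratio difference ran from -0.047 to 0.054. CP-868388 minus CP-865520 at 24 h became 0.00019, 0.076 (always detected sets) and 0.030 (integrity covariate). CP-775146 minus CP-868388 at 24 h became -0.018 and -0.026 under the last 2. CP-775146 minus CP-865520 at 24 h became -0.015 without those 3 arrays and ran from -0.015 to 0.061 with single arrays left out. At 5 days that pair, at 0.14 with all arrays, ran from -0.019 to 0.31. The change of the CP-868388 response became -0.0097 and -0.063, that of CP-865520 ran from -0.0031 to 0.16, and the vehicle difference between times became -0.0053 (quantile) and -0.025 (array median) and ran from -0.0089 to 0.049. The cause was not tested. A replicate block changed no call (CP-775146 at 5 days 0.29, limma adjusted p = 0.0397). Arrays of the same number did not deviate together throughout (correlations of -0.14 to 0.29). The 2 pairs of CP-775146 and vehicle arrays at 5 days gave 0.23 and 0.29. Pairs of CP-868388 and vehicle at 5 days ran from -0.14 to 0.26, and those of the other comparisons from -0.12 to 0.076. The stricter filter (above 80 on at least 4 arrays) left out the 3' set and gives no value, no array had both ratio sets above the floor, and the alternatives for gene lists were not run. Depth is unknown, and a reading of 50 has no order.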
